A study of Mus musculus with 28 samples.

Results

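The members described here are the 200 array probes with the highest ratio of mouse embryonic stem (ES) cell RNA over a mixed reference RNA. They were chosen by their measured values. The ratio was log2 of the processed Cy3 signal (the sample) over the processed Cy5 signal (the reference), averaged over the 14 arrays of cells grown with doxycycline (Dox). A probe could enter if both signals were well above background on all 28 arrays, which 23008 of the 42006 probes on the array were. The 200 highest of these 23008 are the members, and their high ratio is therefore no finding. The comparisons are of each probe's change, its value without Dox minus that with Dox. The ranking used the arrays with Dox and not those without, so 1 side of every change took part in it. The detection condition used both sides. For the Tcl1 and Etv5 lines counts are also given for probes ranked on the other 6 lines, under the same detection condition.

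The study asked how ES cells respond to a single induced protein. Each of 7 lines carried 1 transgene that Dox held off and that was switched on when Dox was washed out. The strain is given in the labels as 126S6/SvEvTac, the cells as male, and each line as a single clone: clone 6 for Tcl1, clone 24 for Etv5, clone 15 for Tbx3, clone 37 for Jarid2, clone 14 for Jmjd2c, clone 23 for Ctbp2 and clone 15 for Mettl5. Cells of all groups were at passage 25, in LIF medium with puromycin at 1.5 µg/ml. In each line, 1 group had Dox at 0.2 µg/ml throughout (transgene off) and 1 group had none (transgene on), and both were harvested 48 h after the last wash (day 2). Of 3 wells per line and condition, 2 were arrayed, which gave 14 groups of 2 arrays. The wells came from 1 clone, so each p-value measures the spread between wells. A clone without its transgene and grown without Dox was not analysed here, so the transgene and the removal of Dox cannot be told apart within a line.

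ES cells are pluripotent cells from the early embryo that LIF holds in an undifferentiated state, with a transcript set kept up by a network of transcription factors that is shut down when they differentiate. Among the proteins induced here, Tcl1 binds the kinase Akt and raises its activity. Etv5, of the ETS family, and Tbx3, of the T-box family, are transcription factors, and Tbx3 is itself part of the pluripotency network. The Polycomb subunit Jarid2 and the corepressor Ctbp2 act in gene repression, the enzyme Jmjd2c removes methyl groups from histones, and Mettl5 methylates ribosomal RNA. The reference in the Cy5 channel itself held ES cell RNA, mixed 1 to 2 with RNA pooled from 11 other mouse cell lines. The files name no gene for any probe, so the members are given by probe ID and sequence. The cell type label could not be checked against marker genes for the same reason, and the term "enriched in ES cells" rests on the ratio to this reference alone.

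Several members share sequence with each other and so are not independent measurements. Probes that shared at least 20 bases, directly or through other members, were put in a sequence group: 7 groups, named A to G, held 35 members, and the 200 members came to 172 distinct sequences or groups. Group A held 19 members, and 7 of them are shown. All 19 fell in the Tcl1 line, where 86 members fell. In the Jmjd2c line the group held 10 of the 16 members called. Capitals mark the longest stretch shared with Z00073037-1, the group's highest-ranked probe, whose own capitals mark what it shares with the next.
Z00073037-1: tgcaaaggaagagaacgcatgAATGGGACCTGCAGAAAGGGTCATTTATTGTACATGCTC
Z00073039-1: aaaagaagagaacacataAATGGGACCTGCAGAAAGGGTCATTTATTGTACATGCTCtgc
Z00073034-1: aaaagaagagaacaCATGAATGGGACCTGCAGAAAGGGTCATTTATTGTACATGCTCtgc
Z00073040-1: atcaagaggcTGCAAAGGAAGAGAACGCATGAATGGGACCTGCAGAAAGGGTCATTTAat
Z00077420-1: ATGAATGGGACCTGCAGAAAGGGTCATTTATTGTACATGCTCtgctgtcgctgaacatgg
Z00073033-1: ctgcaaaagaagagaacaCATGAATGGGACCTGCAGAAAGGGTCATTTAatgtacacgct
Z00073032-1: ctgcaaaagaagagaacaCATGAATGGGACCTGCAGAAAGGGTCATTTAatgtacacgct
The last 2 of these probes, at ranks 50 and 165, have the same 60 bases. Their mean ratios with Dox were 3.30 and 2.84, and each fell in the Tcl1 line, by 0.88 and 0.86, and each stood higher without Dox in the Jmjd2c line, by 0.39 and 0.38. Their largest disagreement was 0.14, in the Jarid2 line.

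Groups B and C each held 4 members and are shown because each changed as a unit in 1 line, B in the Tbx3 line and C in the Ctbp2 line. Capitals here, and in groups D, F and G, mark the longest stretch shared with the nearest other member of the group. The first 4 sequences are group B.
Z00077267-1: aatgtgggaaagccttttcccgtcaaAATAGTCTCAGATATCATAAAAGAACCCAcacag
Z00055646-1: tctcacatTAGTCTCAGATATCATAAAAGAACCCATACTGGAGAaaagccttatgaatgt
Z00060976-1: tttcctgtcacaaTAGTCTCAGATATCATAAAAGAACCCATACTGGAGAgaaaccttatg
Z00060872-1: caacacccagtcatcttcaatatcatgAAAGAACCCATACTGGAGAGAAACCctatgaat
The next 4 sequences are group C.
Z00033709-1: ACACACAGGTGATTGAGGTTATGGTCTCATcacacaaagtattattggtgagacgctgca
Z00031023-1: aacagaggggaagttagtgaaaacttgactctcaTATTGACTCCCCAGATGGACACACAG
Z00030955-1: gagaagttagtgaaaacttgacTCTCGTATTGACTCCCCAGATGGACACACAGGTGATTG
Z00030887-1: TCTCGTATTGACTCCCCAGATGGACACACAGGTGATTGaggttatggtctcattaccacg
Groups D, F and G held 2 members each, shown in this order because D rose in the Etv5 line, F fell in the Tcl1 line and G had the largest difference of any group in the Tbx3 line.
Z00030878-1: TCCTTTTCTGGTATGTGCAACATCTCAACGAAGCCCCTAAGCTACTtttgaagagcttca
Z00059593-1: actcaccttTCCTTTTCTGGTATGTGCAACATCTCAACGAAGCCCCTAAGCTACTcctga
Z00054501-1: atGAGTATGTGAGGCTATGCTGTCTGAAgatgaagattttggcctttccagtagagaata
Z00057246-1: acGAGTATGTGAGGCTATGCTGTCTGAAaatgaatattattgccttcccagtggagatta
Z00072942-1: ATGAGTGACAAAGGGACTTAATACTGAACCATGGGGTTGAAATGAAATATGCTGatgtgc
Z00073760-1: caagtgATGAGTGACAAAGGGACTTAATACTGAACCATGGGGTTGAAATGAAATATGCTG
The remaining members that the results turn on are those with the largest called rises and falls per line and, for the Mettl5 line, where none was called, Z00034256-1, which had the smallest p. They shared no stretch of 20 bases with another member and are given in lower case throughout.
Z00074846-1: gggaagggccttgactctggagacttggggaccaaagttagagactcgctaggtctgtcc
Z00026198-1: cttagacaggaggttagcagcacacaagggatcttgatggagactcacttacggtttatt
Z00031338-1: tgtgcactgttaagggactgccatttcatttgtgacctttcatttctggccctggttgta
Z00076304-1: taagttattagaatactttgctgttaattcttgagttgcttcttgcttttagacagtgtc
Z00042638-1: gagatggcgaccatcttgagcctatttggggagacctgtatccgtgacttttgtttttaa
Z00030868-1: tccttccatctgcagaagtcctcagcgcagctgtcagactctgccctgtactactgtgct
Z00034203-1: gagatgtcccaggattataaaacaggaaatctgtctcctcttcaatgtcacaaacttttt
Z00025583-1: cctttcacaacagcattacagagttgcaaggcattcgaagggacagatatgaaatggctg
Z00026066-1: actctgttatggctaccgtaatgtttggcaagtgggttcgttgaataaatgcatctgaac
Z00071195-1: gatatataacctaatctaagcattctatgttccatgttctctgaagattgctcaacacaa
Z00053850-1: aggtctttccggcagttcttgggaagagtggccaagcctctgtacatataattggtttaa
Z00000813-1: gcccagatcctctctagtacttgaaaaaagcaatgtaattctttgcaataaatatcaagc
Z00029389-1: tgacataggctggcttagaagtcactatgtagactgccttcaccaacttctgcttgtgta
Z00037900-1: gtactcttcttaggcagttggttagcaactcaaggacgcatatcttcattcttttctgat
Z00012976-1: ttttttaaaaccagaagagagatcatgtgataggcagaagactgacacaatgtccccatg
Z00004978-1: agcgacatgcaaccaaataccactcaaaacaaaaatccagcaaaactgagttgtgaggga
Z00034256-1: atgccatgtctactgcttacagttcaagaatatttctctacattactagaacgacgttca
A further 3 members are shown because, with Z00071195-1 and Z00076304-1, they differed most between lines with Dox.
Z00076164-1: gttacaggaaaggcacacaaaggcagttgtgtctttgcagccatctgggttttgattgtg
Z00060619-1: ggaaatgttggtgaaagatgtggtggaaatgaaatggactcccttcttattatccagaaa
Z00010132-1: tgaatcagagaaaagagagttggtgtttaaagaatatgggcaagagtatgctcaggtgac

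By the values that chose them, the members' mean ratios with Dox ran from 2.72 to 4.27, with a median of 3.09, against a median of 0.24 over all 23008 detected probes. Z00025583-1 was highest at 4.27, followed by Z00077267-1 at 4.10, Z00071195-1 at 4.08 and Z00035164-1 at 4.04. The next 6 were Z00058911-1 at 3.95, Z00055646-1 at 3.92, Z00011941-1 at 3.82, Z00034256-1 at 3.76, Z00060976-1 at 3.75 and Z00070062-1 at 3.74. Of these 10, Z00077267-1, Z00055646-1 and Z00060976-1 belong to sequence group B. The edge of the list was not a natural gap: ranks 196 to 200 lay between 2.74 and 2.72, and ranks 201 to 205 between 2.72 and 2.71. A transcript present only in ES RNA, and equally in the sample and in the ES part of the reference, would give a ratio of log2 of 3, which is 1.58. All 200 members exceeded that value, as did 1407 of the 23008 detected probes. The cause of ratios above it was not tested.

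The members were not unusually bright in the sample but dim in the reference. Their Cy3 signal with Dox had a median of 1462 against 1307 over all detected probes, and their Cy5 signal a median of 157 against 1312. These signals form the ratio that chose the members, so a reference dim relative to the sample is no finding. Their GC content was similar, with a median of 43.3% against 45.0%. The letters AATAAA, the usual polyadenylation signal, were present on either strand in 9.5% of members and 10.8% of detected probes, in forward orientation in 6.0% and 7.88%. Replicate arrays differed slightly more for members: the SD over the 2 arrays of a group, averaged over groups, had a median of 0.07 against 0.05.

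All changes from here on are on another scale than the ratio of the rule. The signals were background-corrected and the log2 ratio was normalized by loess within each array. On this scale the members' mean level with Dox ran from 1.14 to 3.56, with a median of 2.19. The list depends on the scale: of the 200 probes highest with Dox on loess values, under the same detection condition, 140 are members. Across arrays the median Cy3 signal was 81.3 to 117 at 1.77 to 2.80 times background, between 25428 and 28841 probes were well above background in Cy3, and replicates correlated at r of 0.972 to 0.997 across probes. The Tbx3 arrays stood apart, with an SD of the replicate difference of 0.24 with Dox and 0.22 without, against at most 0.14 elsewhere. The without Dox replicate 1 of this line was on a slide of its own while its other 3 arrays shared a slide. Tbx3 changes are therefore also given from those 3 arrays, as sizes alone, because only 1 of them was without Dox. In the other lines all 4 arrays shared a slide, with Dox always in the first 2 positions, so that position and Dox cannot be told apart. The slide and the line cannot be told apart for any difference in level between lines.

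With Dox, when by design all transgenes were off, the lines already differed widely in the members. Whether any transgene was expressed with Dox was not checked. The Tcl1 line was lowest: its members' median was 1.59 and 1.60 on the 2 arrays with Dox. The other lines' arrays with Dox had medians of 2.58 and 2.53 (Etv5), 2.18 and 2.30 (Tbx3), 2.35 and 2.37 (Jarid2), 2.33 and 2.37 (Jmjd2c), 2.24 and 2.15 (Ctbp2), and 2.25 and 2.23 (Mettl5). Both Tcl1 arrays lay below, and both Etv5 arrays above, every array with Dox of the other lines. In between came the Jmjd2c, Jarid2, Tbx3, Mettl5 and Ctbp2 lines, at medians of 2.35, 2.34, 2.26, 2.25 and 2.18, and none of these neighbours differed by more than the 2 Tbx3 arrays did from each other. The Tcl1 line was the lowest of the 7 for 132 of 200 members and the Etv5 line the highest for 95.

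The level with Dox differed between lines for 196 of 200 members by limma's moderated F test (Benjamini-Hochberg adjusted p under 0.05), against 77.2% of all probes tested. The arrays with Dox also chose the members, so this count is a description. For the 200 probes with the highest ratio on the arrays without Dox it was also 196, but 189 of these probes are members, so this is no separate count. Between the highest and the lowest line the members spanned a median of 1.04, and detected probes 0.45. The gap of the Tcl1 line to the mean of the other lines, a median of -0.62 over the members, was carried by the sample channel: it was -0.57 in Cy3 alone and -0.09 in Cy5 alone, where all tested probes had medians of 0.02 and -0.01. Whether it belongs to the clone or to the slide cannot be told apart.

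The 5 members with the widest range between lines were all lowest in the Tcl1 line. Z00071195-1 stood at 1.12 and 1.03 on the Tcl1 arrays with Dox, between 3.10 and 3.61 on those of 5 other lines, and at 4.52 and 4.54 in the Etv5 line. Z00076164-1 stood at 0.57 and 0.89 in the Tcl1 line and from 2.90 to 4.18 on the arrays with Dox of the other lines. Z00060619-1 read 0.92 and 0.89 against 2.71 to 4.03. For Z00076304-1 the values were 0.65 and 0.36 against 2.53 to 3.65, and for Z00010132-1 0.77 and 0.65 against 2.53 to 3.78. In each of the 5 the Tcl1 arrays did not overlap with any other line's. Low levels were not shared by all members: Z00012976-1 was higher in the Tcl1 line, at 2.58 and 2.53, than on the arrays with Dox of all other lines, which read 1.46 to 1.80.

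In the Tcl1 line many members fell when Dox was removed to switch the transgene on. Without Dox 86 of 200 members fell and 3 rose, against 3.86% and 2.86% (6.72% in either direction) of all 28883 probes tested. The median change was -0.26 over the members and -0.0026 over all tested probes, with quartiles of -0.54 and -0.05 among the members. The members' median was 1.59 and 1.60 with Dox and 1.35 and 1.33 without, so the arrays of the conditions did not overlap. For 138 members both arrays without Dox lay below both with Dox, as for 22.6% of all tested probes, and for 17 they lay above, as for 21.7%. Of the members that fell, 46 fell at least 1.5-fold, out of 100 such probes on the whole array. The 200 probes ranked next behind the members had 53 that fell and 8 that rose, with a median of -0.14.

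The Tcl1 arrays with Dox took part in choosing the members. Chosen on the 12 arrays with Dox of the other 6 lines instead, 187 of the 200 probes were the same, and 90 fell and 3 rose, with a median of -0.28. The fall was in the sample channel, with a median of -0.27 in Cy3 alone and -0.03 in Cy5 alone. With the 4 Tcl1 arrays fitted alone, 55 members fell and 0 rose, a count of members alone. In that fit 120 of the 200 members and 4008 of all probes had an unadjusted p under 0.05 by limma. Leaving out any 1 of the 4 arrays gave 76 to 84 calls.

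Sequence group A fell as a unit in the Tcl1 line. All 19 of its probes fell, by 0.53 to 0.88 on the log2 scale, with a median of -0.82. Their median was 1.38 and 1.43 on the arrays with Dox and 0.68 and 0.61 without, so the conditions were far apart relative to the replicates. On the array, 4 further probes share 20 bases with a group A member but did not meet the detection condition. Of these, 3 fell in the Tcl1 line, by 0.36, 0.41 and 0.43. Both members of group F also fell, by 0.34 and 0.37. With 1 probe per sequence group, 67 of 172 fell and 3 rose.

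Single members changed by more. Z00034256-1, which had ratios of 3.39 to 4.42 on the arrays with Dox of the other lines, stood at 1.47 and 1.55 with Dox in the Tcl1 line and at 0.46 and 0.48 without, a change of -1.03 (SE 0.06, adjusted p = 6.5e-09). Z00071195-1 went from 1.12 and 1.03 to 0.01 and -0.06, by -1.10 (SE 0.08, adjusted p = 8.3e-08). Z00031338-1 and Z00076304-1 had the largest called falls, -1.38 and -1.24, and without Dox lay below 0, the centre to which loess sets the ratios of each array: at -0.30 and -0.61 for the first and at -0.78 and -0.68 for the second.

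The few rises were small. Z00026198-1 rose from 3.01 and 2.99 to 3.31 and 3.38, by 0.35 (SE 0.06, adjusted p = 0.00101). Z00074846-1 rose from 1.90 and 1.81 to 2.18 and 2.26, by 0.37 (SE 0.07, adjusted p = 0.0038). With Dox both lay within the range of the other lines. Fitted on the 4 Tcl1 arrays alone, neither passed (adjusted p = 0.0834 and 0.0887).

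Members that were lower in the Tcl1 line than elsewhere with Dox tended to be those that fell without Dox. Of the 132 members lowest in this line, 74 fell, out of 86 that fell in all. To keep the same array out of both sides, the level relative to the other lines was taken from 1 replicate with Dox and the change from the other. Across the 200 members Pearson's r was 0.57 with replicate 1 as the level and 0.53 with replicate 2, and in the other 6 lines it ran from -0.29 to 0.25. The points share their without Dox arrays and probes share sequence, so these values are a description.

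In the Etv5 line few members changed. Without Dox 15 fell and 9 rose, against 3.47% and 2.26% (5.72% in either direction) of all 28883 probes tested. The median change was -0.06 over the members and -0.01 over all tested probes. The members' median was 2.58 and 2.53 with Dox and 2.47 and 2.42 without. Choosing on the other 6 lines also gave 15 and 9, but 187 of those 200 probes are members, so this is no separate count. The refit counts that follow are of members alone, without the share over all probes. The counts moved with the arrays used: leaving out any 1 of the 4 Etv5 arrays gave 8 to 13 calls (8 and 13 without the first and second array with Dox, 13 and 10 without the first and second array without Dox), and leaving the Tbx3 line out of the fit gave 48.

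The highest-ranked member was among those that fell. Z00025583-1 went from 3.88 and 3.82 with Dox to 3.23 and 3.15 without, a change of -0.65 (SE 0.10, adjusted p = 3.9e-04). Z00034203-1 fell from 2.81 and 2.73 to 2.12 and 2.01, by 0.71 (SE 0.08, adjusted p = 2.0e-05). Both stood higher with Dox in the Etv5 line than on the arrays with Dox of any other line, and without Dox both lay within the range of the other lines' means with Dox.

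Z00042638-1 rose in the Etv5 line from 2.29 and 2.16 to 2.70 and 2.80, by 0.53 (SE 0.11, adjusted p = 0.00617). The call was lost under 3 of 14 alternatives: median centring (adjusted p = 0.0783), without the second array with Dox (0.0808) and without the second array without Dox (0.081). In the Tcl1 line the same probe fell by 0.83. Z00030868-1 rose from 1.66 and 2.03 to 2.34 and 2.26, by 0.46 (SE 0.13, adjusted p = 0.0366), a call lost under 7 of 14 alternatives, among them each of 3 single arrays left out (adjusted p 0.134 to 0.469). Both probes of group D rose, by 0.26 and 0.39, and 2 of the 19 probes of group A fell.

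In the Tbx3 line more members rose than fell. Over all 4 arrays 31 members rose and 1 fell, against 3.07% and 4.1% (7.17% in either direction) of all 28883 probes tested. The median change was 0.14 over the members and -0.01 over all tested probes, and 169 of 200 had a positive difference. The members' median was 2.18 and 2.30 with Dox and 2.44 and 2.30 without, and replicate 2 read the same in both conditions. Fitted on the 4 Tbx3 arrays alone, limma called 0 members and 0 of all probes, and the named calls of this line had an adjusted p of 0.996. In that fit 26 of the 200 members and 881 of all probes had an unadjusted p under 0.05. Within the slide that held 3 of the arrays the median change was 0.10, with 172 members positive. These 3 arrays also enter the values over 4 arrays. Counts of calls with single arrays left out are of members alone, without the share over all probes. Leaving out the first array with Dox gave 50 calls and leaving out the second array without Dox gave 67. In the reference channel, Cy5 alone, 17 members were called in this line, 9 higher and 8 lower, against 6.69% of probes. In Cy5 alone 0 members were called by limma in the other 6 lines, against 0.0935% of probes in the Tcl1, 0.0138% in the Etv5, 0.00692% in the Jarid2, 0.00346% in the Jmjd2c, 0.045% in the Ctbp2 and 0.0346% in the Mettl5 line.

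Z00071195-1 rose in the Tbx3 line from 3.34 and 3.61 with Dox to 4.13 and 4.03 without, by 0.60 (SE 0.08, adjusted p = 7.4e-04). Within the slide its change was 0.55. Z00053850-1, the 1 member that fell, went from 2.30 and 2.44 to 2.07 and 2.07, a change of -0.30 (SE 0.05, adjusted p = 0.00394). From the 3 arrays of 1 slide its change was again -0.30, and under median centring over all arrays it was -0.15 (adjusted p = 0.206).

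Other large changes of the Tbx3 line were smaller within the slide. Z00026066-1 read 2.70 and 2.50 with Dox and 3.66 and 2.80 without, a change of 0.63 (SE 0.15, adjusted p = 0.0208). Within the slide it was 0.20, and in Cy5 alone, over the 4 arrays, the probe changed by -0.48 (adjusted p = 0.0336). All 4 probes of group B were called higher, by 0.36 to 0.51, with medians of 2.95 and 2.89 with Dox and 3.69 and 3.07 without. Within the slide their changes were 0.12 to 0.19. The group G probes differed by 0.71 and 0.73, with medians of 0.72 and 0.29 with Dox and 1.88 and 0.58 without, and did not pass the test (adjusted p = 0.0641 and 0.0761). Within the slide they were 0.05 and 0.10.

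Group G is also where the Tbx3 line stood lowest. Its 2 probes read 0.72 and 0.29 (medians) on the Tbx3 arrays with Dox and 1.69 to 2.49 on those of the other lines. The Tbx3 line was the lowest of the 7 with Dox for 44 members, and 0 of these fell without Dox. Only 1 of all 200 members fell in this line, so the 0 shows no contrast with the Tcl1 line.

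In the Jarid2 line no member passed the test. By limma with Benjamini-Hochberg adjustment 0 of 200 members were called, against 0.0104% of all 28882 probes tested. An unadjusted p under 0.05 was reached by 11 of the 200 members and by 1401 of all probes tested. The median change was 0.01, and the members' median was 2.35 and 2.37 with Dox and 2.37 and 2.33 without. The 2 members with the smallest p were Z00053850-1, which read 2.47 and 2.51 with Dox and 2.33 and 2.25 without (change -0.20, SE 0.05, adjusted p = 0.569), and Z00073032-1 of group A, which read 2.40 and 2.26 and then 2.51 and 2.54 (change 0.20, SE 0.06, adjusted p = 0.782). Leaving out the first array without Dox gave 1 call.

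In the Jmjd2c line 16 members rose and 0 fell, against 0.36% and 0.0554% (0.415% in either direction) of all 28883 probes tested. These 16 are among 104 probes that rose on the whole array. Of the 16, 10 belong to sequence group A. With 1 probe per sequence group 5 of 172 rose. The median change over the members was 0.05, and their median was 2.33 and 2.37 with Dox and 2.48 and 2.50 without. Leaving out any 1 of the 4 arrays gave 2 to 9 calls (2 and 9 without the first and second array with Dox, 3 and 5 without the first and second array without Dox). Agilent's processed signals gave 2, and leaving the Tbx3 line out of the fit gave 29 that rose and 4 that fell. The counts of these refits are of members alone, without the share over all probes.

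In the Jmjd2c line 10 of the 19 group A probes rose. All 19 had changes of 0.28 to 0.45, with a median of 0.38. Their median was 2.33 and 2.37 on the arrays with Dox and 2.71 and 2.74 without, again without overlap. In the other lines the group's median change was -0.20 (Etv5), 0.17 (Tbx3, and 0.06 within the slide), 0.05 (Jarid2), 0.12 (Ctbp2) and -0.08 (Mettl5). All 19 probes were lower without Dox in the Tcl1 line and higher in the Jmjd2c line.

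The largest rise in the Jmjd2c line was that of Z00000813-1, from 2.04 and 2.02 with Dox to 2.79 and 2.72 without, by 0.73 (SE 0.09, adjusted p = 3.8e-04). With Agilent's processed signals its change was 0.61 and did not pass (adjusted p = 0.0753). Without Dox it lay above its level on every other array of the series. Z00029389-1 rose from 2.14 and 2.14 to 2.69 and 2.71, by 0.56 (SE 0.08, adjusted p = 7.9e-04), and again lay above all other arrays. In the Tcl1 line Z00029389-1 fell by 0.28 and Z00000813-1 differed by 0.17 without passing the test (adjusted p = 0.327).

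In the Ctbp2 line 22 members fell and 3 rose, whereas among all 28884 probes tested more rose than fell, 3.36% against 2.02% (5.38% in either direction). The median change was -0.02 over the members and -0.01 over all tested probes, with 107 members lower and 93 higher. The member median depended on the scaling: it was -0.10 with processed signals (141 lower), -0.082 in Cy3 alone (148 lower) and -0.12 in the authors' table (85 of 114 lower), and -0.066 to 0.016 with single arrays left out. The members' median was 2.24 and 2.15 with Dox and 2.16 and 2.14 without, and these overlap. Leaving out the first array with Dox gave 14 calls, the first without Dox 11 and the second without Dox 10. Leaving the Tbx3 line out of the fit gave 33 that fell and 6 that rose, and the 4 arrays alone gave 12 and 2. Again these are counts of members alone, without the share over all probes.

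Group C carried part of the fall. All 4 of its probes fell, by 0.33 to 0.45, from medians of 3.21 and 2.98 with Dox to 2.67 and 2.72 without. Of these, Z00031023-1 went from 3.42 and 3.23 to 2.87 and 2.89, by -0.45 (SE 0.07, adjusted p = 2.4e-04). The same group had medians of 2.98 and 3.09 with Dox and 3.23 and 3.37 without in the Jmjd2c line, where 1 of the 4 was called. Z00004978-1, at rank 198, had the largest called fall, from 2.58 and 2.56 to 2.10 and 2.04, by 0.50 (SE 0.06, adjusted p = 1.9e-05).

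A pair of members had the largest called rises here. Z00037900-1 rose from 1.49 and 1.35 to 1.95 and 2.03, by 0.57 (SE 0.09, adjusted p = 5.9e-04). Z00012976-1 rose from 1.58 and 1.51 to 2.04 and 2.17, by 0.56 (SE 0.09, adjusted p = 4.8e-04). In the Tcl1 line, which had the highest level of Z00012976-1 with Dox, this probe fell by 0.41, from 2.58 and 2.53 to 2.29 and 2.00.

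In the Mettl5 line 0 of 200 members were called by limma with Benjamini-Hochberg adjustment, against 0.0242% of all 28883 probes tested. An unadjusted p under 0.05 was reached by 36 of the 200 members and by 1465 of all probes tested. The median change was -0.06, against -0.0010 over all tested probes, and 149 members were lower and 51 higher. The members' median was 2.25 and 2.23 with Dox and 2.19 and 2.15 without, so that the conditions did not overlap. Z00034256-1 read 3.46 and 3.51 with Dox and 3.11 and 3.18 without (change -0.34, SE 0.06, adjusted p = 0.0801). Z00031338-1 read 2.93 and 2.99 and then 2.57 and 2.62 (change -0.37, SE 0.07, adjusted p = 0.0988). Leaving the Tbx3 line out of the fit gave 3 that fell, both of these among them (adjusted p = 0.0217 and 0.0459). This count is of members alone, without the share over all probes.

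Across lines, the response to the removal of Dox differed for 103 of 200 members by limma's moderated F test, against 10.4% of all 28882 probes tested. For the mean of the 7 lines' changes, 0 of 200 members and 0 of all 28884 probes (0%) passed limma's test. An unadjusted p under 0.05 was reached by 12 of the 200 members, a count not taken over all probes. The median of that mean change was -0.03 over the members and -0.01 over all tested probes.

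Member by member, 78 were called in no line, 72 in 1 line, 38 in 2, 10 in 3 and 2 in 4. Over all 28884 probes tested, 80.4% were called in no line, 15.1% in 1, 3.42% in 2, 0.869% in 3 and 0.201% in 4. The 2 called in 4 lines were Z00034256-1, which fell in the Tcl1, Etv5 and Ctbp2 lines and rose in the Tbx3 line, and Z00053850-1, which fell in the Tcl1, Tbx3 and Ctbp2 lines and rose in the Etv5 line. Of the members called in both of a pair of lines, most went opposite ways in some pairs and the same way in others. Between the Tcl1 and Tbx3 lines 19 were called in both, which is 19 of 89 and 19 of 32, and 18 of them fell in the first and rose in the second. Over all probes tested 280 were called in both, 0.969%, and 228 of these (81.4%) also went opposite ways. Within the Tbx3 slide all 18 were higher, with a median of 0.34, but the calls that chose them used the same arrays, so this is no separate check. Between the Tcl1 and Jmjd2c lines 13 were called in both, 13 of 89 and 13 of 16, and all 13 fell in the first and rose in the second. Of these 13, 10 are group A probes, so they come to 4 distinct sequences or groups. Over all probes tested 54 were called in both, of which 22 went opposite ways. For the Tcl1 and Etv5 lines it was 14, which is 14 of 89 and 14 of 24, and 11 of them fell in both. Over all probes 381 were called in both, 268 of them in the same direction. For the Tcl1 and Ctbp2 lines it was 12, which is 12 of 89 and 12 of 25, and again 11 fell in both. Over all probes 387 were called in both, 145 of them in the same direction. These differences between members and all probes were not tested.

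Z00071195-1, Z00031338-1 and Z00025583-1 show the pattern of the first pair. Z00031338-1 fell in the Tcl1 line and, from 3.75 and 3.79 to 3.40 and 3.29, in the Etv5 line (change -0.42, adjusted p = 0.00151), and rose from 3.18 and 3.27 to 3.69 and 3.72 in the Tbx3 line (change 0.48, adjusted p = 0.00139). From the 3 arrays of 1 slide that rise was 0.49. Z00025583-1 fell in the Tcl1 line from 1.72 and 1.67 to 0.99 and 0.96. It rose in the Tbx3 line from 3.38 and 3.44 to 4.09 and 3.60 (change 0.44, adjusted p = 0.0132), but within the slide its change was 0.19. In the Jarid2 line Z00031338-1 was at 2.90 and 2.92 with Dox and 2.90 and 2.92 without, a change of 0.00 with an SE of 0.07.

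Over the 200 members the changes of 2 lines correlated most for the Tcl1 and Mettl5 lines and for the Etv5 and Mettl5 lines, at r of 0.50 in both cases. Over all detected probes the same pairs had r of 0.12 and 0.49. These lines share no array, but in all 3 Dox and slide position went together, and members of a sequence group are not independent.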

How the data were processed

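RNA of 28 wells of 7 mouse ES cell lines was measured on 2-colour 60-base Agilent arrays of 43451 spots. Per the file headers, Agilent Feature Extraction 9.5.1.1 produced the deposited intensity of each spot and its local background, as scanned, and a processed intensity after background subtraction and dye balancing. Flags for signal above background, saturation and outliers are deposited as 0 or 1. A further table of 25030 probes, 114 of them members, was deposited by the authors as log10 values. Set against the scanner values, these are Cy3 signals less each array's Cy5 deviation from its mean over arrays, to within 0.01 for 86.3% to 100% of bright spots, with column medians of 2.25 to 2.28. How low values were bounded in it stays unknown.

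Signals were corrected with normexp (offset 50) and ratios normalized by loess within arrays, with control and quality-flagged spots at weight 0 and flagged spots then left out (limma 3.58.1, R 4.3.3, statmod 1.5.0, and version 1.17.8 of the data.table package). Spots of a probe were averaged. The 28884 probes tested were those for which some group had a Cy3 signal well above background on both arrays. A group-means model of 14 groups (14 residual degrees of freedom) was fitted over all 28 arrays with lmFit and eBayes, and a probe was called ("rose", "fell") at a two-sided Benjamini-Hochberg adjusted p under 0.05 over all probes tested. A change is log2 without minus with Dox. Precision is limited by having 2 arrays per group. The fit was tested on simulated data.

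The members and lists were chosen with earlier results of these data known. Named per line are the 2 members with the largest rise and fall among called members whose groups did not overlap (where under 3 were called, the 2 with the smallest p), the 10 highest ratios, and the 5 with the widest range with Dox. The files name no gene, and 0 probe IDs matched the reference table, so the gene lists, the marker lists and the check of each transgene were not run, and positions are not given. Alternatives covered the background correction, the scaling, the Cy3 channel alone, the authors' values, the filter, blocks, single arrays left out and other choices of members.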

Additional observations from a re-analysis of the deposited data

Results flagged for a closer look

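With Dox, the median of the members in the Tcl1 line, 1.60, lay far from the other 6 lines, which had 2.18 to 2.55. The gap to the nearest line was 0.618 of the whole range over the lines, above Dixon's critical value of 0.568 for 7 values. The arrays with Dox also chose the members, so this value is a description. Of the 30 levels with Dox checked in this way (the median and 29 named members), 13 were above it. Chance flags about 1 in 20 groups, but this count cannot be read against that share: 5 of the members were named for their range between lines with Dox, others for their fall in the Tcl1 line, and all share the same arrays. For 10 of the 12 members the Tcl1 line was the lowest by that margin. Their gaps as a share of the range were 0.696 for Z00031338-1, 0.673 for Z00076304-1, 0.593 for Z00071195-1, 0.698 for Z00073032-1, 0.813 for Z00029389-1, 0.682 for Z00034256-1, 0.638 for Z00076164-1, 0.591 for Z00060619-1, 0.602 for Z00010132-1 and 0.626 for Z00070062-1. The other 2 were Z00012976-1, for which the Tcl1 line was the highest (0.812), and Z00026066-1, for which the Tbx3 line was the lowest (0.613). The line and the slide cannot be told apart in these levels.

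The response differed between the lines for 103 of the 200 members by limma's moderated F test, and for 18 of the 19 members named for a line's response. The adjusted p was 5.7e-08 for Z00031338-1, 1.6e-07 for Z00034256-1, 7.6e-07 for Z00073032-1, 8.7e-07 for Z00071195-1, 4.5e-06 for Z00053850-1, 7.2e-06 for Z00034203-1, 1.2e-05 for Z00076304-1, 8.1e-05 for Z00004978-1 and 1.1e-04 for Z00025583-1. It was 1.7e-04 for Z00042638-1, 3.7e-04 for Z00000813-1, 4.0e-04 for Z00031023-1, 0.00111 for Z00029389-1, 0.00135 for Z00012976-1, 0.00849 for Z00026198-1, 0.0137 for Z00037900-1, 0.0258 for Z00074846-1 and 0.0449 for Z00026066-1. These probes were picked for a large response in 1 line, so their p-values are a description. The remaining probe, Z00030868-1, had an adjusted p of 0.279.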

How the results depend on the processing

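Counts of members called and medians of their changes were recomputed under 12 to 16 alternatives each, besides leaving out single arrays. The 1-probe-per-sequence-group alternative was chosen after seeing the data. The Tcl1 count kept its size under 15 of 16, and the counts for differences between lines under all that were run. Agilent's processed signals gave 11 calls in the Etv5 and 2 in the Jmjd2c line, with medians of -0.31 (Tcl1) and -0.10 (Ctbp2). Over all probes these were 1203 and 67 calls, with medians of -0.005 and -0.015. Median centring gave 9 (Etv5), 77 (Tbx3), 2 (Jmjd2c) and 9 (Ctbp2), with medians of -0.22 (Tcl1), -0.099 (Etv5) and 0.27 (Tbx3). Over all probes it gave 281 (Etv5), 3469 (Tbx3), 16 (Jmjd2c) and 488 (Ctbp2) calls. The medians over all probes were 0.034 (Tcl1), -0.035 (Etv5) and 0.081 (Tbx3), so part of these shifts was common to the array. Cy3 alone gave 25 (Jmjd2c) and 39 (Ctbp2), with medians of 0.012 (Jmjd2c), -0.082 (Ctbp2) and -0.050 (Mettl5). Over all probes it gave 164 (Jmjd2c) and 1656 (Ctbp2) calls. For the settings that follow, counts and medians are of members alone. The authors' table gave, over 114 members, 40 (Tbx3), 24 (Ctbp2) and 1 (Mettl5), with medians of -0.31 (Tcl1) and -0.12 (Ctbp2). Without the filter 9 Jmjd2c calls were made. The 4 arrays alone gave 55 (Tcl1), 0 (Tbx3), 4 (Jmjd2c) and 14 (Ctbp2), with 2 residual degrees of freedom. All lines but Tbx3 gave 48 (Etv5), 33 (Jmjd2c), 39 (Ctbp2) and 3 (Mettl5). In the Tbx3 line, slide as a random block gave 13. Members chosen without Dox had medians of -0.23 (Tcl1) and -0.050 (Mettl5), the highest 100 had -0.070 (Mettl5), the highest 400 had -0.19 (Tcl1) and -0.048 (Mettl5), and 1 probe per sequence group gave 5 Jmjd2c calls. Where no cause is given, the cause was not tested.

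Leaving out each array gave 76 to 84 calls (Tcl1), 8 to 13 (Etv5), 7 to 67 (Tbx3), 0 to 1 (Jarid2), 2 to 9 (Jmjd2c), 10 to 19 (Ctbp2) and 0 to 0 (Mettl5). The medians were -0.32 to -0.25 (Tcl1), -0.11 to -0.028 (Etv5), 0.10 to 0.19 (Tbx3), -0.019 to 0.030 (Jarid2), 0.020 to 0.071 (Jmjd2c), -0.07 to 0.02 (Ctbp2) and -0.072 to -0.051 (Mettl5). Differences between lines in the response gave 93 to 129, levels with Dox 190 to 197 and the mean change 0 to 0.

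With the replicate number as a block, 5 Jmjd2c members were called in place of 16, and the other counts stayed within 1.5 times. Same-numbered arrays deviated from their group means with correlations of 0.43 in the Tcl1 line, 0.17 in the Tbx3 line and -0.06 to 0.05 in the others. In the Tcl1 line they thus deviated together. The samples are known to share only a number and were not taken as pairs, so the main fit leaves this correlation out. The difference between lines with Dox could not be fitted with the block. Members near background were outside the choice, so weakly expressed transcripts are not described.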
